A study of Mus musculus with 22 samples.

Results

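The genes described here are 10 inflammatory mediators of the mouse, chosen by name: the interleukin-1 ligands Il1a and Il1b, their antagonists Il1rn and Il1r2, the cytokines Tnf, Il6 and Il10, the inflammasome sensor Nlrp3, and the enzymes Acod1 and Ptgs2. They are 10 of the 31053 genes counted in every library, and the list was set by name, with no threshold on a measured value. Levels are given as CPM, in which the UMIs (captured transcripts with a unique molecular identifier) of a gene are scaled to a fixed total of UMIs for a library or for a class of barcodes within it. Each barcode marks 1 droplet, and it is called positive for a gene when it holds at least 1 UMI of that gene.

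The libraries were droplet single-cell RNA profiles (10x Chromium) of mice that carried Prom1-CreERT2 and a Rosa26 ZsGreen (ZSG) reporter and no oncogenic allele. The Prom1 promoter, which is active in only some cells, drives a tamoxifen-inducible Cre recombinase that switches on ZSG and, in Nalcn-het and Nalcn-null mice, recombines conditional alleles of the sodium leak channel gene Nalcn. Circulating ZSG+ cells sorted from blood of mice without tumours (ntCZC) filled 10 libraries, 2 wt, 4 Nalcn-het and 4 Nalcn-null. Hashtagged pools of kidney, liver, lung, stomach and either epididymis or uterus (tissue) filled 9 libraries with a genotype, 5 wt, 2 Nalcn-het and 2 Nalcn-null, from mice aged 551 to 654 days like those of ntCZC. A single library of unsorted blood mononuclear cells (PBMC) came from a wt male of 120 days. Animals are not named in the labels. Hence n is a number of libraries, and p-values measure the spread between libraries, which may in part be technical. The organs of a pool were not told apart here.

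ntCZC libraries held 50 to 621 barcodes and 161541 to 2600526 UMIs, and tissue libraries 1856 to 27857 barcodes and 8571019 to 139793927 UMIs. Any pair of libraries shared at most 2.60% of the smaller library's barcodes. Barcodes that showed 200 genes or more, and whose mitochondrial share of UMIs did not exceed 25%, were given a class when at least 3 of its markers were detected, and none of the 10 genes was a marker. This gave a class to 1879 of 2109 ntCZC, 38828 of 60905 tissue and 604 of 679 PBMC barcodes. Class names carry "-like" because they rest on 6 or 7 markers each. Nalcn, the targeted gene, had 0 UMIs in ntCZC and PBMC and 39, 11 and 24 UMIs in wt, Nalcn-het and Nalcn-null tissue. Pooled per group this was 0.123, 0.138 and 0.349 CPM, and both Nalcn-null libraries (0.272 and 0.386 CPM) lay above every wt library (0 to 0.204 CPM). Recombination is limited to cells with Prom1 activity when Cre was induced and to their descendants, and the deleted part of the gene is not given in the sources used here. These counts therefore check no genotype label, in blood or in tissue. A pair of libraries stood apart. The median barcode of ntCZC wt replicate 3 had 325 UMIs, and tissue Nalcn-null replicate 3 was labelled female but held Y-linked transcripts. Genotype comparisons are also given without each of them.

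As background, interleukin-1α and interleukin-1β both act on the type 1 interleukin-1 receptor and start fever, endothelial activation and neutrophil recruitment. Il1b needs cleavage of its product by caspase-1 in an inflammasome, a protein platform that Nlrp3 assembles after damage or infection, and its transcript is itself induced through NF-kB. Il1rn encodes a receptor antagonist and Il1r2 a decoy receptor that binds the ligands without signalling, so both oppose the ligands, and Il10 opposes the whole programme. Acod1 makes itaconate in activated myeloid cells and Ptgs2 encodes cyclooxygenase-2, the inducible step of prostaglandin synthesis.

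On build GRCm38, Il1a (chr2:129299610-129309972, minus strand) and Il1b (chr2:129364570-129371139, minus strand) lie near each other, and Il1rn lies elsewhere on that chromosome (chr2:24336853-24351494, plus strand). Il1r2 (chr1:40074079-40125231), Il10 (chr1:131019845-131024974) and Ptgs2 (chr1:150100031-150108227) lie on the plus strand of another. Tnf (chr17:35199381-35202007), Il6 (chr5:30013114-30019981), Nlrp3 (chr11:59541568-59566956) and Acod1 (chr14:103046977-103056573) each lie on a chromosome of their own.

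Promoters of 6 of the genes are printed because the results turn on these genes and because 4 of them share an element near the start. Each is the 150 bases before the annotated start, 5′ to 3′ on the gene's strand, from RefSeq on build GRCm38.p6. The RefSeq start of Acod1 lies inside the gene span given before, so its printed bases run into that span. Capitals mark a TATAAA element, an AP-1 match (TGANTCA), a C/EBP match (TTGCNNAA) or an NF-kB match, each searched on both strands.
Il1b (chr2:129371140-129371289, minus strand): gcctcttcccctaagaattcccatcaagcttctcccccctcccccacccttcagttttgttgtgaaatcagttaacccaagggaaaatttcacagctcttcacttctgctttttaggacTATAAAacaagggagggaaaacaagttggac
Acod1 (chr14:103046862-103047011, plus strand): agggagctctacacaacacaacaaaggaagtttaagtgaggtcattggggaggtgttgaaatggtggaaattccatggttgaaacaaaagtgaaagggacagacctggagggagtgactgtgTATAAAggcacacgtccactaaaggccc
Tnf (chr17:35202008-35202157, minus strand): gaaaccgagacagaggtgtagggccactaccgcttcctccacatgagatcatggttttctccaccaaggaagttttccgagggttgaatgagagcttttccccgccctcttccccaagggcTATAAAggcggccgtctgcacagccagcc
Il1a (chr2:129309973-129310122, minus strand): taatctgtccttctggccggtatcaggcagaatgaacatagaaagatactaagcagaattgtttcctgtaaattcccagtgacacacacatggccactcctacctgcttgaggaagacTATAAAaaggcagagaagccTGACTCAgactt
Il6 (chr5:30012964-30013113, plus strand): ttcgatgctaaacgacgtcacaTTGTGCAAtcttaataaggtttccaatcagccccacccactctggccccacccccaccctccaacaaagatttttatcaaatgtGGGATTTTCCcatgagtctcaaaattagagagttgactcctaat
Ptgs2 (chr1:150099881-150100030, plus strand): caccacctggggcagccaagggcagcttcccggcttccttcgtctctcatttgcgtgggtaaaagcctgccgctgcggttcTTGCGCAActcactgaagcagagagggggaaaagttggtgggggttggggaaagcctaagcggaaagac
The TATAAA element began 31 bases before the start in Il1b, 28 in Acod1, 29 in Tnf and 32 in Il1a. In the 250 bases before the start it was found in 12.4% of 32817 RefSeq promoters. In Il6 an NF-kB match began 44 bases and a C/EBP match 128 bases before the start, and in Ptgs2 a C/EBP match began 69 bases before it. An NF-kB match was found in 7.25%, a C/EBP match in 9.57% and an AP-1 match in 6.75% of these promoters. Of the 10 genes, 9 had an entry in the promoter table, and Il10 did not. These matches describe letters and were not measured as binding sites.

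The level of Il1b did not separate sorted blood from tissue. Across all barcodes it lay between 3.42 and 1086 CPM in the 10 ntCZC libraries (median 250) and between 146 and 711 CPM in the 9 tissue libraries (median 233), and it stood at 146 CPM in the PBMC library. ntCZC libraries lay on both sides of the tissue range, with wt replicate 1 above all and Nalcn-het replicate 3 below all of it.

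Its antagonists were lower in sorted blood. Il1rn ran from 0 to 29.7 CPM in ntCZC (median 7.42) and from 28.3 to 352 CPM in tissue (median 64.9), and 9 of the 10 ntCZC libraries lay under every tissue library. Il1r2 ran from 1.14 to 29.96 CPM in ntCZC (median 4.10) and from 18.3 to 83.4 CPM in tissue (median 34.5), and 8 ntCZC libraries lay under every tissue library.

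Both enzymes showed the same order. Acod1 ran from 0 to 32.5 CPM in ntCZC (median 3.04) and from 15.4 to 285 CPM in tissue (median 35.7), with 8 ntCZC libraries under all of tissue. Ptgs2 ran from 0 to 15.4 CPM in ntCZC (median 0.520) and from 26.9 to 152 CPM in tissue (median 42.4), and was the 1 gene of the 10 for which ntCZC and tissue did not overlap. Over all genes with a UMI, every ntCZC library lay under every tissue library in 16.2% of 25796.

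The other ligand, the other cytokines and Nlrp3 overlapped between kinds. Il1a had a median of 4.45 CPM in ntCZC (0 to 77.8) and 16.3 CPM in tissue (8.02 to 68.7). Tnf had a median of 18.1 CPM in ntCZC (0 to 67.8) and 29.5 CPM in tissue (10.4 to 81.6). Il6 ran from 0 to 9.12 CPM in ntCZC (median 2.46) and from 4.87 to 27.8 CPM in tissue (median 12.7), with 8 ntCZC libraries under all of tissue. Il10, which restrains inflammation, had a median of 0.942 CPM in ntCZC (0 to 53.0) and 2.73 CPM in tissue (0.906 to 20.1). Nlrp3 had like medians of 50.1 CPM in ntCZC (14.7 to 99.2) and 50.2 CPM in tissue (21.8 to 175).

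**Figure D1:**
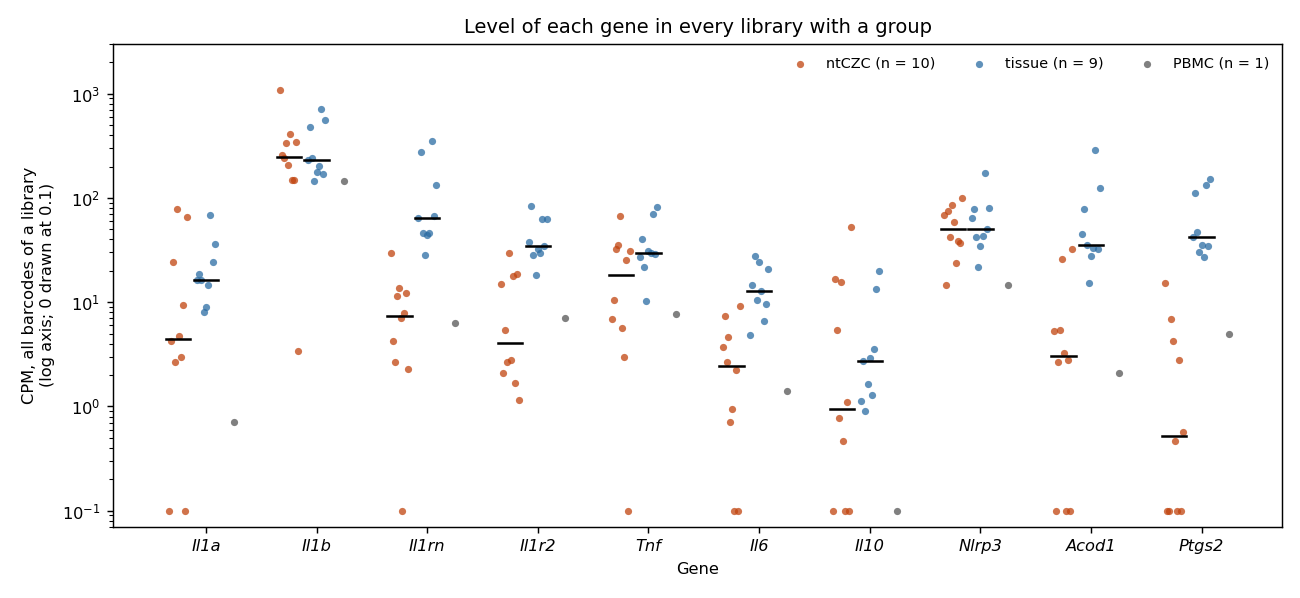
Level of each of the 10 genes over all barcodes of a library, on a log axis in CPM with 0 drawn at 0.1; a point is a library (10 ntCZC, 9 tissue, 1 PBMC) and a bar the median of a kind. Ptgs2 points of ntCZC all lie under those of tissue, while Il1b and Nlrp3 points of both kinds lie side by side.

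Summed over all barcodes, ntCZC and tissue were compared by edgeR's quasi-likelihood test with sex as covariate. Of the 9 genes that passed the filter on low counts, 5 were called at a Benjamini-Hochberg adjusted p under 0.05, all lower in ntCZC, and 4 were not called. Of all 10681 genes tested, 64.5% were called, 28.5% higher and 36% lower, so the count of 5 stands against a background in which most genes were called. The largest difference was that of Ptgs2, with a log2 change of -4.26 (SE 0.60). Il1rn stood at -3.67 (SE 0.58), Acod1 at -3.44 (SE 0.72), Il1r2 at -2.58 (SE 0.55) and Il6 at -2.14 (SE 0.45). Il1b had a log2 change of -0.24 (SE 0.54, edgeR adjusted p 0.725), Nlrp3 of -0.37 (SE 0.39), Tnf of -0.93 (SE 0.46, edgeR adjusted p 0.0819) and Il1a of -0.99 (SE 0.73). The filter asked for 3.85 CPM in at least 9 libraries. All 9 tissue libraries reached this for each of the 9 genes, and among ntCZC libraries alone only Il1b (9 of 10) and Nlrp3 (10 of 10) would have passed. The 5 called genes reached it in 3 to 7 of 10 ntCZC libraries and thus passed through tissue, where they were higher, so their count and their changes are a description and no p is given for them. The median log2 change of all genes tested was -0.08. Without both libraries that stood apart, Ptgs2 stood at -4.36 and Il1b at -0.45. In bulk sums of this kind fewer cells of a type and less RNA per cell cannot be told apart.

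Partner genes of the pathway were called about as often as all genes, of which 64.5% were. Of 50 listed partners 48 were tested and 30 called, 24 higher and 6 lower in ntCZC, where 28.5% of all genes were higher and 36% lower, and the difference from all genes was not tested. Of 12 inflammasome parts tested 10 were higher and 1 lower, among them Casp1, the protease that matures interleukin-1β (log2 change 2.35, SE 0.26). Il6ra, the interleukin-6 receptor subunit, rose by 2.39 (SE 0.23). The alarmin Il33 had a log2 change of -6.93 (SE 0.68) and the signalling receptor Il1r1 of -4.38 (SE 0.44), and both passed the filter through 9 of 9 tissue and 0 of 10 ntCZC libraries, so that they had to differ. Transcripts of 10 genes known to respond to tissue dissociation, such as Fos and Hspa1a, summed to 2134 ± 1144 CPM over the 10 ntCZC libraries and to 3315 ± 950 CPM over the 9 tissue libraries (mean ± SD). Of these 10, 1 was called higher and 5 were called lower in ntCZC. Summed markers of neutrophil-like barcodes (7 of 7 detected in both kinds) ran from 37.6 to 8314 CPM in ntCZC and from 203 to 2287 CPM in tissue. The part of either list in these differences was not tested.

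Within tissue 7 of the 10 genes had a class of barcodes that stood apart from the next. Among classes with at least 20 barcodes in several libraries, neutrophil-like barcodes had the highest mean level of 6 of them, and in each case the gap to the next class exceeded the combined SD of both. Il1b reached 7196 ± 2423 CPM (SD, n = 8) there, with the lowest library at 3534 and the highest at 11161 CPM, and the next class, type 2 dendritic cell-like, stood at 1699 ± 458 CPM (SD, n = 7). Acod1 stood at 1980 ± 889 CPM (SD, n = 8) in neutrophil-like barcodes, and the next class (hepatocyte-like) at 95.1 ± 226 CPM (SD, n = 6). The hepatocyte-like libraries had a median of 0 and a highest value of 557 CPM.

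The antagonists followed the ligand into this class. Il1r2 stood at 1452 ± 614 CPM (SD, n = 8) in neutrophil-like barcodes against 133 ± 112 CPM (SD, n = 4) in mature dendritic cell-like barcodes, the next class. Il1rn stood at 1208 ± 719 CPM (SD, n = 8) against 334 ± 100 CPM (SD, n = 8) in alveolar macrophage-like barcodes. Ptgs2 stood at 1262 ± 544 CPM (SD, n = 8) against 224 ± 76.6 CPM (SD, n = 8) in fibroblast-like barcodes, and Nlrp3 at 1037 ± 456 CPM (SD, n = 8) against 222 ± 82.9 CPM (SD, n = 8) in alveolar macrophage-like barcodes. The lowest neutrophil-like library had 652 CPM of Il1r2 and the highest mature dendritic cell-like library 267 CPM.

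The remaining genes had other centres. Among classes with at least 20 barcodes in several libraries, Il6 was highest in fibroblast-like barcodes, at 349 ± 203 CPM (SD, n = 8) with 26.1% of barcodes positive. The next such class (smooth muscle or pericyte-like) stood at 43.2 ± 75.6 CPM (SD, n = 8). Its 8 fibroblast-like libraries ran from 84.6 to 597 CPM around a median of 360. Tnf was highest in alveolar macrophage-like (183 ± 48.5 CPM, SD, n = 8) and C1q macrophage-like barcodes (167 ± 176 CPM, SD, n = 9), which did not differ beyond their spread. Il1a was highest in alveolar macrophage-like (132 ± 81.0 CPM, SD, n = 8) and neutrophil-like barcodes (110 ± 99.6 CPM, SD, n = 8), again within their spread. Il10 had no class that stood apart, with 32.9 ± 40.5 CPM (SD, n = 9) in C1q macrophage-like, 23.9 ± 32.5 CPM (SD, n = 8) in T cell-like and 16.1 ± 8.02 CPM (SD, n = 5) in plasma cell-like barcodes. Single libraries raised the first 2 means. In C1q macrophage-like barcodes wt replicate 5 (54 barcodes) stood at 137 CPM and the others at most at 37.0 CPM. In T cell-like barcodes wt replicate 4 stood at 103 CPM and the others at most at 20.5 CPM.

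**Figure D2:**
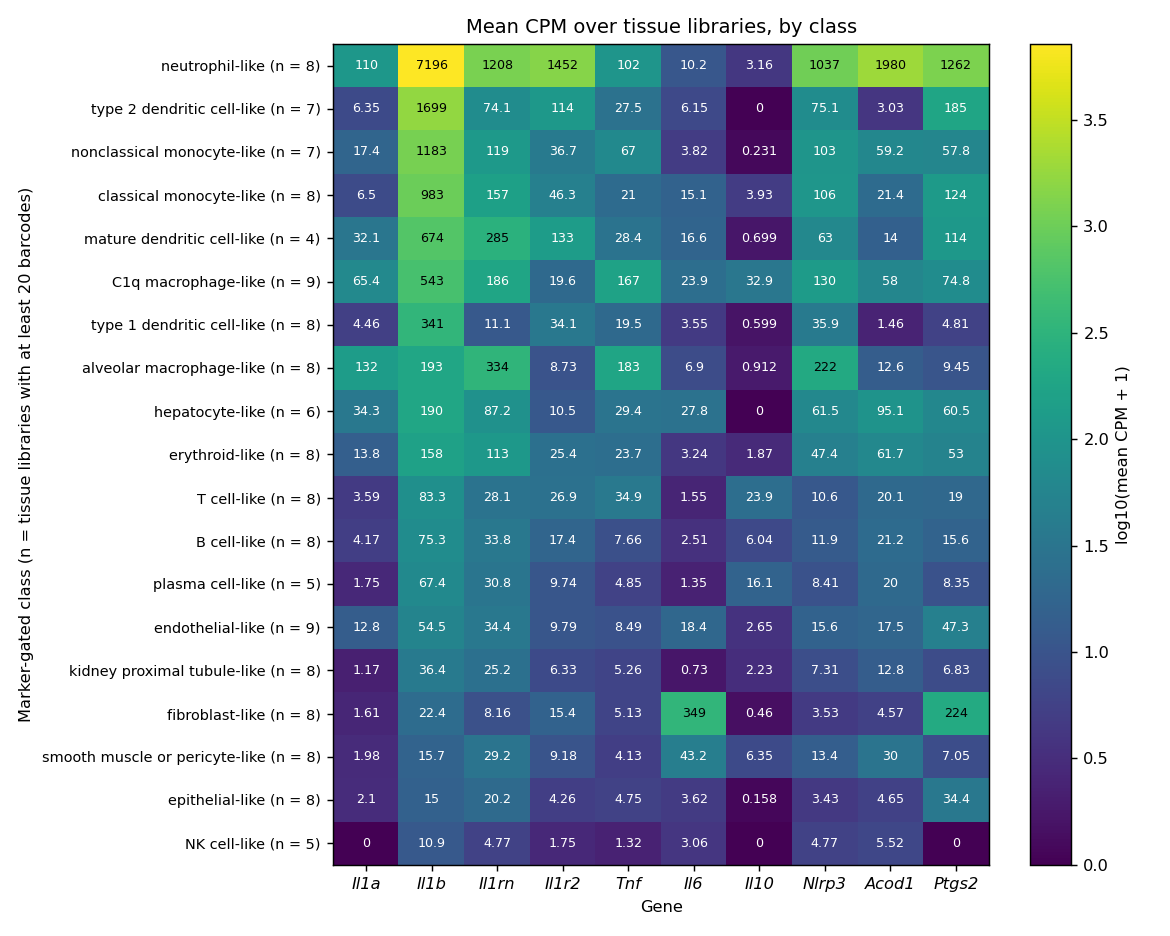
Mean level of the 10 genes in marker-gated classes of tissue, in CPM averaged over libraries with at least 20 barcodes of the class, for classes with at least 3 such libraries (n beside each class), coloured by log10 of the mean plus 1. The row of neutrophil-like barcodes holds the highest value of 6 genes, fibroblast-like barcodes that of Il6 at 349 CPM, and alveolar macrophage-like barcodes that of Tnf and Il1a.

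Shares of positive barcodes were read after each barcode was thinned to 1000 UMIs. In 1870 neutrophil-like tissue barcodes (500 with fewer UMIs left out) 94.1% were positive for Il1b, 67.8% for Acod1, 64.9% for Il1r2, 53.8% for Ptgs2, 53.4% for Nlrp3 and 48.7% for Il1rn. B cell-like barcodes, which should lack these genes, gave the background in tissue: 4.00% for Il1b, 1.91% for Il1rn, 1.59% for Il1r2, 1.15% for Ptgs2, 1.06% for Acod1, 0.881% for Nlrp3 and 0.411% for Il1a over 3404 barcodes. Alveolar macrophage-like barcodes were positive for Il1rn in 25.5%, Nlrp3 in 18.5%, Tnf in 12.9% and Il1a in 10.3% of 4327. For Tnf, Il6 and Il10 kidney proximal tubule-like barcodes served as background, at 0.587%, 0.147% and 0.147% of 1362. Il6 was found in 17.9% of 1062 fibroblast-like barcodes, and Il10 in 2.07% of 2943 T cell-like and 1.29% of 2712 C1q macrophage-like barcodes.

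A class with at least 20 barcodes in only 1 tissue library had high levels of several of the genes. Its Il6 lay above the fibroblast-like mean and its Acod1 above the neutrophil-like mean given before. In that library, Nalcn-het replicate 1, the 21 basophil or mast cell-like barcodes had 4437 CPM of Il1b, 2584 CPM of Acod1 and 1644 CPM of Il6. Over 58 basophil or mast cell-like barcodes pooled from 9 tissue libraries, Il1b stood at 6193 CPM, Acod1 at 3275 CPM and Il6 at 1765 CPM, and 44.8% of them were positive for Il6. The 9 such barcodes of ntCZC had 16 Il6 UMIs, 32% of all Il6 UMIs in ntCZC, and 7 of the 9 were positive. Large peritoneal macrophage-like barcodes held another 16 of these 50 UMIs and C1q macrophage-like barcodes 12.

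Classes of tissue were compared in 1 edgeR quasi-likelihood fit with the library as a block, over 13350 genes. Neutrophil-like exceeded classical monocyte-like barcodes in 8 of the 10 genes, against 29.8% of all genes called, 15% higher and 14.8% lower. The log2 changes were 7.33 for Acod1 (SE 0.52), 5.31 for Il1r2 (SE 0.38), 3.93 for Il1a (SE 0.38) and 3.66 for Ptgs2 (SE 0.40). They were 3.58 for Nlrp3 (SE 0.36), 3.57 for Il1rn (SE 0.44), 3.18 for Il1b (SE 0.42) and 2.33 for Tnf (SE 0.38). For all of these but Il1a, edgeR adjusted p ran from 1.40e-25 to 1.31e-07. The filter of this fit asked for 28.2 CPM in 1 library of any class. Il1a reached this in 8 of 8 neutrophil-like and 0 of 8 classical monocyte-like libraries, so its change is a description. Tnf reached it in 7 and 1 and Acod1 in 8 and 2 of these libraries. Il6 (-0.59, SE 0.67) and Il10 (0.74, SE 0.65) were not called. Of 49 partners tested, 16 were higher and 11 lower, led by the NF-kB cofactor Nfkbiz (3.55, SE 0.27) and the receptor subunit Il1rap (3.46, SE 0.28), while the inflammasome adaptor Pycard fell by 2.18 (SE 0.32) in the same barcodes. The median log2 change of the 10 genes was 3.57, and that of all genes 0.05.

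Classical and nonclassical monocyte-like barcodes, the circulating patrolling form being the nonclassical one, differed in 1 of the 10 genes, against 7.72% of all genes called, 4.91% higher and 2.81% lower. Ptgs2 was higher in the classical class by 2.13 (SE 0.56, edgeR adjusted p 0.00612). Il1b stood at 983 ± 367 CPM (SD, n = 8) in the classical and 1183 ± 506 CPM (SD, n = 7) in the nonclassical class, a log2 change of -0.05 (SE 0.41). Between classical monocyte-like and C1q macrophage-like barcodes 6 of the 10 genes were called, against 21% of all genes, 9.87% higher and 11.2% lower in monocytes. Il1r2 (1.73, SE 0.41), Ptgs2 (1.501, SE 0.40) and Il1b (1.08, SE 0.40) were higher in monocytes, and Il1a fell by 2.72 (SE 0.39), Il10 fell by 2.63 (SE 0.49) and Tnf fell by 2.14 (SE 0.36). In macrophages Il1a reached the filter's level of 28.2 CPM in 8 of 9 libraries and Il10 in 3 of 9. Neither reached it in any of the 8 monocyte libraries, so the changes of Il1a and Il10 are a description. Tnf reached it in 9 of 9 and 1 of 8. The Il1b call (edgeR adjusted p 0.0382) was lost when any 1 of the 9 libraries but wt replicate 5 was left out. Partners of the pathway were called in 22 of 49, led by the pyrin gene Mefv (4.40, SE 0.29) and, lower in monocytes, the constitutive cyclooxygenase Ptgs1, which fell by 4.08 (SE 0.37).

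Dendritic and lymphoid classes were compared in the same fit. Mature dendritic cell-like barcodes, marked by Ccr7, had less Il1b than type 2 dendritic cell-like barcodes, at 674 against 1699 CPM (log2 change -1.98, SE 0.57, edgeR adjusted p 0.0123), and this was the 1 gene called of 10, against 9.09% of all genes, 4.08% higher and 5.01% lower. The call was lost without tissue Nalcn-null replicate 2 (edgeR adjusted p 0.0593), with 4 markers asked of a barcode (0.393) and with the study's barcode filter (0.055). T cell-like barcodes exceeded B cell-like barcodes in Tnf (1.98, SE 0.41) and Il10 (1.80, SE 0.39), 2 of 10 genes against 19.8% of all genes (11% higher, 8.78% lower). The Il10 call was lost without tissue wt replicate 4. Tnf reached the filter's level of 28.2 CPM in 4 of 8 T cell-like libraries and Il10 in 1 of 8. Neither reached it in any B cell-like library, so both changes are a description. Set as a mean of 4 myeloid classes against the mean of B, T and NK cell-like barcodes, 9 of the 10 genes were higher in the myeloid classes, against 41.6% of all genes called, 22.3% higher and 19.3% lower. Il1b had a log2 change of 5.54 (SE 0.35) and Nlrp3 of 4.88 (SE 0.34), and Il10 was the exception with 0.73 (SE 1.10). The Il6 call (1.79, SE 0.63) was lost without tissue wt replicate 1. Of 49 partners 34 were higher there and 2 lower, led by Mefv (6.03), Alox5 (4.89), Pla2g4a (4.42) and Il6ra (3.73).

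Nonclassical monocyte-like barcodes were the largest class of ntCZC (882 of 1879) and carried 39.4% of its Il1b UMIs, so the class was compared between sorted blood and tissue. The class had less Il1b in every ntCZC library than in any tissue library. The 7 ntCZC libraries with at least 20 such barcodes stood at 441 CPM in wt replicate 1, at 546, 249 and 454 CPM in Nalcn-het replicates 1, 2 and 4 and at 229, 580 and 353 CPM in Nalcn-null replicates 1, 2 and 4. The 7 tissue libraries stood at 1627, 895, 1530 and 753 CPM in wt replicates 1 to 4, at 830 and 1952 CPM in Nalcn-het replicates 1 and 2 and at 695 CPM in Nalcn-null replicate 3. The kinds did not overlap, within any genotype or over all.

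The antagonist showed the same order. Il1rn lay between 6.58 and 18.3 CPM in ntCZC and between 44.1 and 325 CPM in tissue, again with no overlap within any genotype. Acod1 was the third gene without overlap, at 0 to 7.48 CPM in ntCZC and 8.09 to 201 CPM in tissue. Nlrp3 lay between 26.7 and 80.7 CPM in ntCZC and between 43.3 and 154 CPM in tissue, with Nalcn-het libraries overlapping. Of 4331 genes with a UMI in every such tissue library, every ntCZC library lay under every tissue library in 4.34%.

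Of the 10 genes 3 passed the filter in this class, which asked for 38.7 CPM in at least 7 libraries. Il1b reached it in all 7 libraries of both kinds and was called lower in ntCZC, with a log2 change of -1.69 (SE 0.20, edgeR adjusted p 2.08e-06), where 32% of all 3553 genes were called, 14.8% higher and 17.2% lower. With 1 library left out at a time, tissue Nalcn-null replicate 3 included, Il1b stayed called, at -1.83 to -1.57. Il1rn reached the filter's level in 7 of 7 tissue and 0 of 7 ntCZC libraries. It passed only through the kind where it was high and so had to differ, and its change of -3.35 (SE 0.38) is a description. Nlrp3 reached the level in 7 tissue and 4 ntCZC libraries, and thus also passed through tissue, so its change of -1.34 (SE 0.27) is a description too. The median over all genes tested was 0.04. Of 34 partners tested 3 were higher and 10 lower. Mefv had a log2 change of -2.04 (SE 0.26), the interleukin-1 receptor kinase Irak2 of -1.26 (SE 0.28) and the NF-kB brake Tnfaip3 of -1.23 (SE 0.40), and these 3 passed the filter through tissue, with 2, 4 and 5 of 7 ntCZC libraries at its level. Pycard stood at 1.33 (SE 0.24) and passed through ntCZC, with 6 of 7 tissue libraries at that level.

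Other transcripts differed with these genes. Dissociation-response transcripts summed to 2713 ± 1135 CPM over the 7 ntCZC libraries and to 3448 ± 658 CPM over the 7 tissue libraries (mean ± SD), with 1 of 10 called higher and 3 lower. The 7 neutrophil markers, all detected in both kinds, summed to between 145 and 462 CPM in ntCZC and between 140 and 835 CPM in tissue. S100a9 averaged 46.1 CPM in ntCZC and 223 CPM in tissue, and Retnlg, Hdc, Cxcr2 and Trem1 were also lower in ntCZC. Csf3r (79.9 against 56.0 CPM) and Mmp9 (1.48 against 0.544 CPM) were higher there. The gate also bound unequally. Only the 3 markers asked for were detected in 43.9% of the 585 tissue and 16.0% of the 882 ntCZC barcodes of the class. The part of these transcripts and of the gate in the result was not tested. Blood and organs came from separate preparations, so that sample kind and handling cannot be told apart here either.

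**Figure D3:**
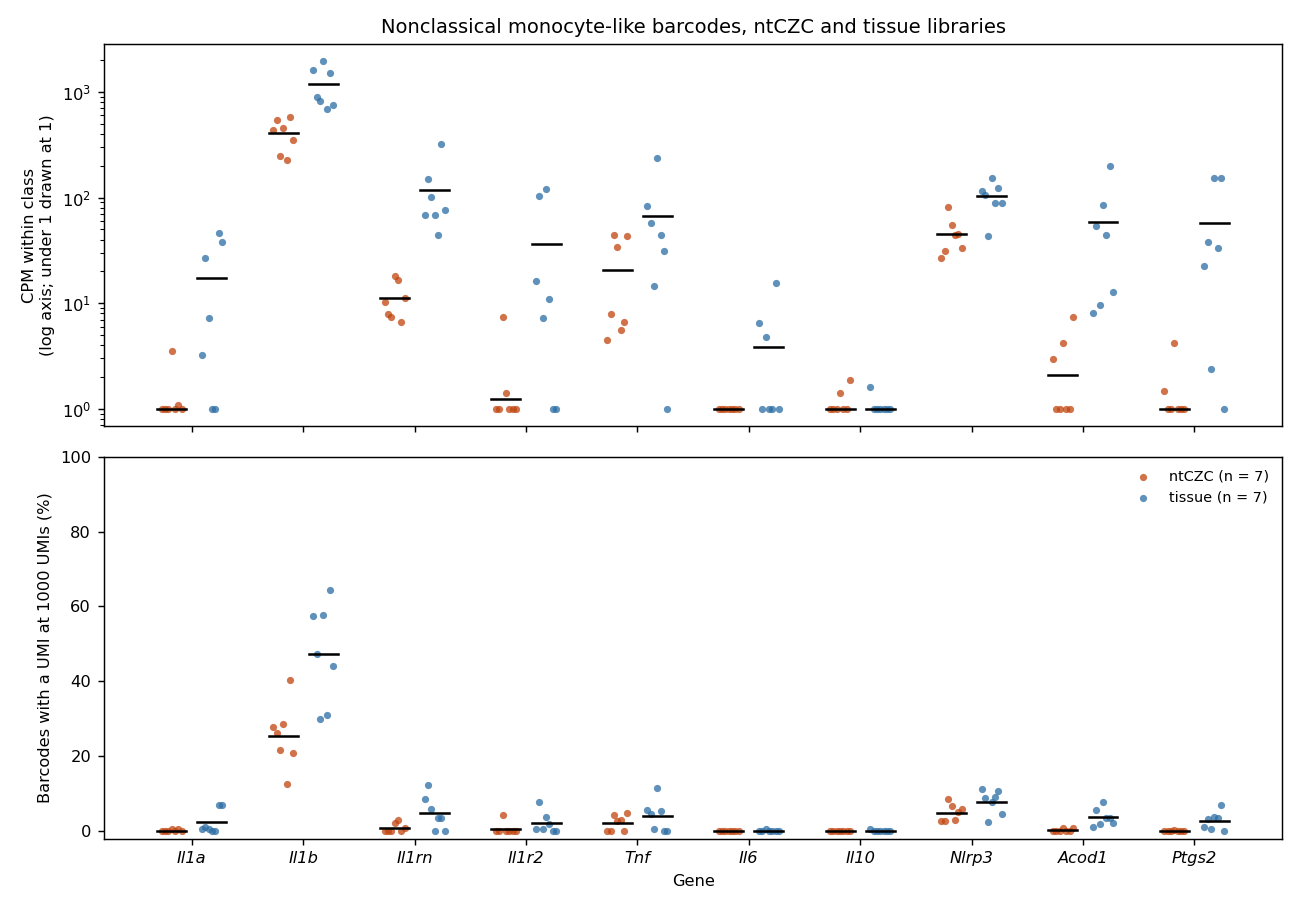
The 10 genes in nonclassical monocyte-like barcodes of 7 ntCZC and 7 tissue libraries, as CPM on a log axis with values under 1 drawn at 1 (top) and as the share of barcodes with a UMI after thinning to 1000 UMIs (bottom); a point is a library and a bar the mean. For Il1b, Il1rn and Acod1 the CPM points of both kinds do not overlap, and the Il1b share averages 25.5% in ntCZC and 47.4% in tissue.

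In the same class, the share of barcodes positive after thinning to 1000 UMIs was compared over libraries by an exact two-sided permutation test. In 1 random draw of the thinning, shown in the plot of nonclassical monocyte-like barcodes, Il1b was found in 25.5% ± 8.58 (SD, n = 7) of ntCZC and 47.4% ± 13.4 (SD, n = 7) of tissue barcodes (exact permutation p 0.00466, unadjusted). Adjusted over the 10 genes in that draw, as planned, Il1b and Ptgs2 (exact permutation p 0.0155 each) and Acod1 (0.00583) passed 0.05. Il1rn did not (exact permutation p adjusted 0.0909). Averaged over all possible draws, an alternative chosen after seeing the data, the shares were 27.9% ± 8.20 and 46.0% ± 14.0 (exact permutation p 0.0186, adjusted over all 15674 genes 0.141), so that Il1b did not pass over all genes. Il1rn, at 0.941% ± 0.422 in ntCZC and 6.50% ± 3.19 in tissue, did (exact permutation p 0.000583, the smallest that 3432 splits can give, adjusted 0.0193), though in the single draw its unadjusted exact p was 0.0367. Acod1 passed as well, at 0.217% ± 0.322 against 3.01% ± 2.24 (exact permutation p adjusted 0.0278), and Ptgs2 did not, at 0.0714% ± 0.162 against 2.86% ± 2.70 (exact permutation p adjusted 0.0886). These were 2 of the 10 genes, where 1.65% of all genes were lower in ntCZC at that level, and 6 of the 10 were lower at an unadjusted p under 0.05, a level that 5.8% of all genes passed. The thinned B cell-like background in tissue was 1.91% for Il1rn, 1.06% for Acod1 and 1.15% for Ptgs2, and all had 0 of 259 barcodes in ntCZC. Without thinning, at median depths of 3202 to 6064 UMIs in ntCZC and 1304 to 3579 in tissue libraries, Il1b was found in 57.3% and 59.5% of barcodes (exact permutation p 0.791, unadjusted).

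B cell-like barcodes, present in both kinds, had 0 UMIs of Il1b in 264 ntCZC barcodes, which allows up to 1.14% of barcodes with a UMI (not of cells that express the gene) and a level of up to 1.60 CPM. Tissue B cell-like barcodes held 70.1 CPM pooled, so Il1b was at least 43.8-fold lower in ntCZC by this pooled limit. These tissue barcodes served above as background, and endothelial-like tissue barcodes held 49.2 CPM of Il1b. Whether the tissue UMIs came from B cells was not tested. Nalcn-het replicate 3 held most of the UMIs of the ntCZC class, and without it the limit was 3.58 CPM and the difference at least 19.5-fold. Il1b was the 1 gene of the 10 that passed the filter here. It did so through 6 of 8 tissue and 0 of 6 ntCZC libraries and so had to differ, and nothing is read from its test, in which 36% of 4639 genes were called, 17.3% higher and 18.7% lower. The same barcodes held no UMI of Il1rn, Il1r2, Il6, Nlrp3, Acod1 or Ptgs2 in ntCZC, against 30.1 CPM of Il1rn and 17.0 CPM of Il1r2 in tissue. Neutrophil markers summed to between 2.96 and 314 CPM in tissue B cell-like barcodes and between 0 and 8.66 CPM in those of ntCZC, where 6 of the 7 markers were at 0 in every library. Il1b did not pass the filter, and was not tested, when 4 markers were asked of a barcode or when any 1 of 7 of the 8 tissue libraries was left out (all but Nalcn-het replicate 2). Counting limits here and elsewhere cover counting error only.

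Neutrophil-like barcodes of the blood kept Il1b and had little Acod1. A single ntCZC library (wt replicate 1, 103 barcodes) and the PBMC library (37 barcodes) held at least 20 of them, so these are values without a test. Il1b stood at 7518 CPM in ntCZC (95% Poisson interval 7136 to 7914) and 5878 CPM in PBMC (5078 to 6768), inside the range of 3534 to 11161 CPM over 8 tissue libraries. Acod1 stood at 36.1 CPM in ntCZC (14.5 to 74.5) and 30.5 CPM in PBMC (0.771 to 170), and the lowest tissue library had 725 CPM (549 to 939). The tissue median of 2123 CPM was 58.7 times the ntCZC level.

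Other genes lay under the lowest tissue library too, with Poisson intervals that were apart for only some. Il1r2 stood at 134 CPM in ntCZC (87.7 to 197) and 305 CPM in PBMC (146 to 560), apart from the lowest tissue library at 652 CPM (587 to 722). Ptgs2 stood at 134 CPM in ntCZC (87.7 to 197), apart from the lowest tissue library at 483 CPM (342 to 663), and at 183 CPM in PBMC (67.1 to 398), which overlapped it. Il1rn overlapped the lowest tissue library, at 280 CPM (175 to 423), in both ntCZC (176 CPM, 122 to 245) and PBMC (274 CPM, 125 to 520). Nlrp3 overlapped it likewise, at 398 CPM (314 to 497) in ntCZC and 426 CPM (233 to 715) in PBMC against 521 CPM (374 to 707). Il1a had 0 UMIs in both blood samples, with upper Poisson bounds of 19.0 CPM in ntCZC and 112 CPM in PBMC, and the lowest tissue library had 38.8 CPM (18.6 to 71.4). Tnf stood at 20.7 CPM in ntCZC (5.63 to 52.9) and at 0 UMIs in PBMC (up to 112 CPM) against 25.4 CPM (3.08 to 91.8). By their point values alone, 7 of the 10 genes lay under every tissue library in ntCZC, as did 22.2% of 4842 genes, and 7 in PBMC, as did 41.2% of these genes. In thinned barcodes Acod1 was found in 4.81% of 104 ntCZC and 67.8% of 1870 tissue neutrophil-like barcodes, while Il1b was found in 98.1% and 94.1%. Dissociation-response transcripts summed to 5886 CPM in ntCZC, 9046 CPM in PBMC and 5515 to 10959 CPM in tissue. Blood and organs came from separate preparations, and age and sorting also set these samples apart, so that sample kind and handling cannot be told apart.

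Large peritoneal macrophage-like barcodes gave ntCZC a second pattern, with Il1a and almost no Il1b. The class, marked by Gata6 and Prg4, held 97 ntCZC barcodes, of which 40 lay in Nalcn-null replicate 1 and 25 in Nalcn-het replicate 3, and 18 tissue barcodes. Il1a stood at 218 CPM in the first and 359 CPM in the second of these libraries, and Il10 at 32.5 and 248 CPM. Tnf stood at 195 and 133 CPM and Nlrp3 at 174 and 488 CPM, while Il1b stood at 4.65 and 0 CPM. Pooled over ntCZC, 54.6% of these barcodes were positive for Il1a (95% Clopper-Pearson interval 44.2 to 64.8), 72.2% for Nlrp3 (62.1 to 80.8) and 2.06% for Il1b (0.251 to 7.25). The median ntCZC barcode of the class detected 6 of its 7 markers and also 4 of the 6 C1q macrophage-like markers. Median depths of the class were 11549 and 12568.5 UMIs in these 2 libraries. The 264 B cell-like barcodes of ntCZC, at median depths of 2256 to 9981 UMIs, were positive for Il1a in 0.379% and held 0 UMIs of Nlrp3 and Il1b. Thinned to 1000 UMIs, Il1a was found in 13.3% and Nlrp3 in 22.2% of 90 large peritoneal macrophage-like barcodes, and each in 0 of 259 B cell-like ones.

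A few barcodes thus held most of the Il1a transcripts of sorted blood. The 97 barcodes were 3.88% of those of ntCZC but deeper, against a highest library median of 6891.5 UMIs, and so held a larger part of all UMIs. In Nalcn-null replicate 1 the class held 430312 of 1401839 UMIs, and in Nalcn-het replicate 3 it held 270515 of 1754217. The UMI shares given next are therefore not to be set against 3.88%. The 97 barcodes carried 79.7% of the Il1a UMIs of ntCZC, 59.4% of Il10, 40% of Acod1, 38.5% of Tnf, 32.4% of Nlrp3 and 32% of Il6. Without Nalcn-het replicate 3 the share was 75.8% for Il1a but 33.3% for Il10, 17.8% for Acod1, 19.9% for Nlrp3 and 17.6% for Il6, and without Nalcn-null replicate 1 it was 18.8% for Tnf. Il1b UMIs lay in nonclassical monocyte-like (39.4%), neutrophil-like (36.5%) and classical monocyte-like barcodes (12.5%). The neutrophil-like share leaned on 1 library, since wt replicate 1 alone gave 1456 of the 4794 Il1b UMIs of ntCZC in that class. The same 2 libraries had the highest Il1a levels over all barcodes, at 77.8 CPM in Nalcn-null replicate 1 and 65.0 CPM in Nalcn-het replicate 3, and no other ntCZC library exceeded 24.2 CPM. C1q macrophage-like barcodes of ntCZC (83) detected a median of 2 markers of this class besides 4 of their own, and held another 13.3% of the Il1a and 21.7% of the Il10 UMIs.

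**Figure D4:**
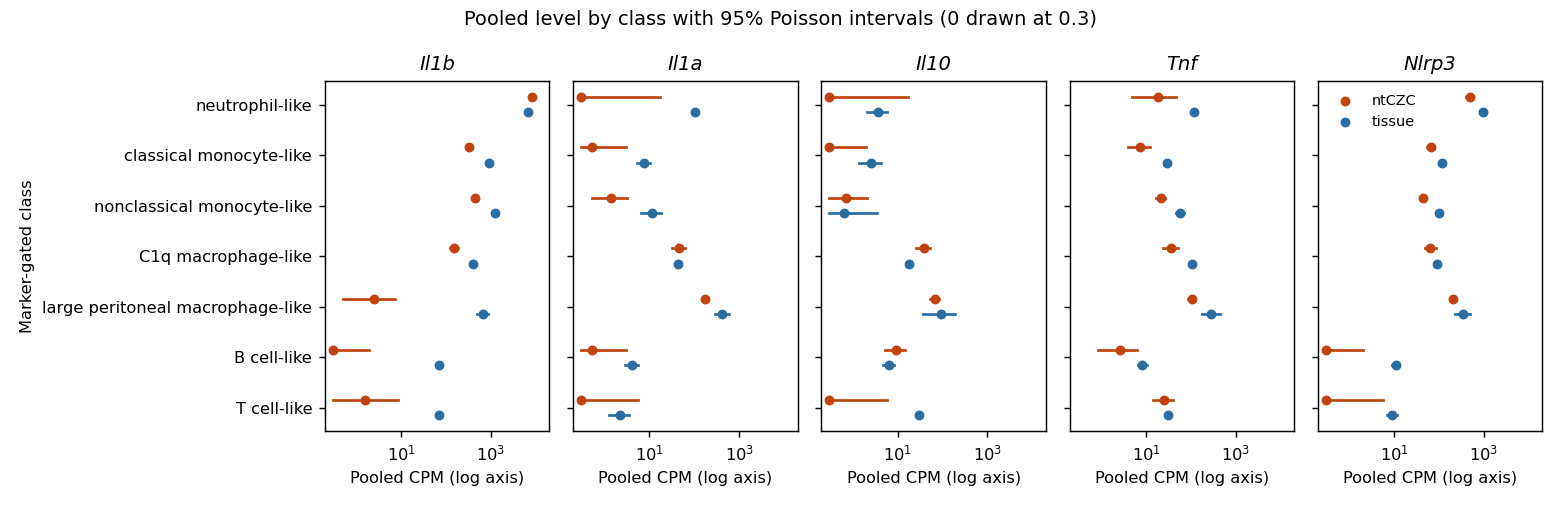
Level of 5 of the genes in 7 classes, pooled over all ntCZC (red) and all tissue (blue) barcodes of a class, in CPM on a log axis with 95% Poisson intervals and 0 drawn at 0.3. Il1b falls from neutrophil-like barcodes to lymphoid ones and lies at 2.44 CPM in large peritoneal macrophage-like barcodes of ntCZC, where Il1a, at 176 CPM, is highest.

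Between Nalcn genotypes none of the 10 genes was called. In ntCZC, Nalcn-null against het gave 0 of 10 genes and 0% of 9379 genes by edgeR, with 686 genes at an unadjusted p under 0.05 and 1 of the 10 by DESeq2. Without Nalcn-null replicate 2, edgeR called 1 of the 10, and both of these calls were Il1b. Il1b (2.79, SE 1.07, unadjusted p 0.0237 in edgeR's fit), Il6 (-2.40, SE 0.71) and Il10 (-2.86, SE 1.05) had unadjusted p under 0.05, a level that 7.31% of genes passed, with edgeR adjusted p of 0.585, 0.481 and 0.585. The Il1b value rested on Nalcn-het replicate 3, at 3.42 CPM, while the other Nalcn-het libraries stood at 259, 240 and 337 CPM and the Nalcn-null libraries at 207, 407, 148 and 149 CPM. Il1b averaged 228 CPM in Nalcn-null and 210 CPM in Nalcn-het, so the sex-adjusted change of 2.79 does not describe these levels. Sex nearly followed genotype in ntCZC. The wt libraries were male, Nalcn-het replicate 3 was the only female of its genotype and Nalcn-null replicate 2 the only male. Sex and genotype can thus hardly be told apart in these fits. Nalcn-null against wt gave 0 of 10 genes and 0% of all, with 360 genes and 0 of the 10 at an unadjusted p under 0.05 and 0 of the 10 by DESeq2. Nalcn-het against wt gave 0 of 10 genes against 0.107% of all (10 genes), 0.0107% higher and 0.096% lower. In that comparison 3 of the 10 were lower in het at an unadjusted p under 0.05, a level that 7.90% of genes passed: Il1b (-2.22, SE 0.71), Il1rn (-2.14, SE 0.79) and Il1r2 (-3.29, SE 1.28). The 2 wt libraries, at 1086 and 340 CPM of Il1b, include replicate 3, whose median barcode had 325 UMIs, and the one that held 103 of the 113 neutrophil-like barcodes of ntCZC. Without wt replicate 3, 0 of the 10 were called for Nalcn-null against het. The comparisons with wt then rest on 1 wt library, assumed to vary like the others, and Nalcn-het against wt gave -2.08 for Il1b.

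In tissue the genotypes were compared within C1q macrophage-like and neutrophil-like barcodes. In C1q macrophage-like barcodes 0 of 9 genes were called for Nalcn-null and 0 of 9 for Nalcn-het against wt, as were 0% of 7512 genes in both. DESeq2 called 0 of the 9 in both. At an unadjusted p under 0.05 by edgeR there were 1 and 2 of the 9, where 264 (3.51%) and 206 (2.74%) of all genes were. The highest of the wt libraries given next had 54 barcodes of the class. Tnf, for example, stood at 208 and 133 CPM in Nalcn-null and at 76.4, 71.7, 125, 94.6 and 621 CPM in wt libraries. In neutrophil-like barcodes 0 of 8 genes were called for Nalcn-het (0% of 4455 genes, 310 at an unadjusted p under 0.05) and 0 of 8 for Nalcn-null, against 0.0224% of all (1 gene), and DESeq2 called 0 of the 8 in both.

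In that last comparison 5 of the 8 genes, all lower in Nalcn-null, had an unadjusted p under 0.05 by edgeR, where 5.19% of all genes did. Il1rn stood at 280 and 492.9 CPM in Nalcn-null and at 1196, 846, 2551 and 1587 CPM in wt libraries (log2 change -2.21, SE 0.59, edgeR adjusted p 0.63). Ptgs2 stood at 483 and 691 CPM in Nalcn-null and at 2128, 1042, 1131 and 1671 CPM in wt (log2 change -1.53, SE 0.47, edgeR adjusted p 0.783). Every Nalcn-null library lay under every wt library for both genes, and for Nlrp3, Il1a and Tnf (4 and 2 UMIs of the last 2 in the shallower Nalcn-null library), as it did for 9.36% of 8002 genes with a UMI in every wt library. Acod1 (725 and 1296 against 3283, 1056, 2754 and 2483 CPM), Il1b and Il1r2 overlapped. Il6 lay the other way, at 15.5 and 25.4 CPM in Nalcn-null and at most 10.5 CPM in wt, on 4 and 2 UMIs, and Il10 had 0 UMIs in both Nalcn-null libraries, whose depth does not resolve the wt levels of 1.44 to 10.6 CPM. The Nalcn-het libraries, at 1111 and 1601 CPM of Il1rn, lay inside the wt range. Of the 2 Nalcn-null libraries 1, entered in the fits under its labelled sex, is the library whose transcripts went against that sex. Without it 0 genes were called here and in C1q macrophage-like barcodes, and Il1rn stood at -2.96 (edgeR adjusted p 0.697) with 1 Nalcn-null library, assumed to vary like the others.

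Across 21 classes of tissue, the genes most like each of the 10 were ranked by Pearson's r of log2(CPM + 1), as a description over classes that share libraries. Il1b and Nlrp3 were most like each other among 12983 genes (r = 0.94), followed for Il1b by the myeloid transcription factor Spi1 (r = 0.91). Il1rn was most like Slc15a3 (r = 0.96), Acod1 like the neutrophil chemokine receptor Cxcr2 (r = 0.92), Tnf like Hilpda (r = 0.89), Ptgs2 like Ifitm1 (r = 0.88), Il1a like the C-type lectin Clec4n (r = 0.85) and Il1r2 like Antxr2 (r = 0.82). Cxcr2 is also a marker of the neutrophil-like gate, so its profile over classes was partly set by the gate. Il6 was most like 1200007C13Rik (r = 0.90) and Hgf, the hepatocyte growth factor of mesenchymal cells (r = 0.90). Il10 had the weakest likeness, with Gfi1 at r = 0.75, and its r with the other 9 genes lay between -0.19 and 0.16.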

How the data were processed

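The authors deposited UMI counts per gene and barcode, made with Cell Ranger (version 2.1.1 in the submitters' processing notes, 3.0.2 in the matrix headers) on the mouse build mm10 from 10x Chromium 3′ libraries. Genotype groups were taken from the labels, and 2 tissue libraries whose title and strain disagree were left out of comparisons. The genes and lists described were chosen with earlier results of these data known. All 10 genes were examined in every comparison, with up to 4 pathway partners of largest change among those called, and the 3 genes most like each. A part of these is named here. Barcodes were kept from 200 genes upward and up to a mitochondrial share of 25%. Scrublet (scanpy 1.11.5) removed 15088 tissue barcodes, 16.2% of those passing. A class needed 3 markers and 1.5 times the markers of any other lineage. Counts were summed per library and class (at least 20 barcodes) and tested with edgeR 4.0.16 (R 4.3.3), with TMM scaling, filterByExpr, sex as covariate between libraries and Benjamini-Hochberg adjustment over all genes tested. The code was tested on simulated data. Replicate numbers were not used to pair the libraries, which were treated as independent, though some may share a mouse. Alternatives were RLE scaling, DESeq2 1.42.0, no filter, 4 markers, the study's barcode filter, no doublet removal, a replicate block and leaving out libraries.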

Additional observations from a re-analysis of the deposited data

Results flagged for a closer look

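Of 68 groups of 4 to 10 libraries examined, 18 held a library far from the others, where chance flags about 1 in 20. Several came from libraries rich in one class. Among Nalcn-null ntCZC libraries, replicate 1, which held 40 of the 97 large peritoneal macrophage-like barcodes, was far above the others for Il1a (77.8 CPM), Il10 (15.7 CPM) and Acod1 (25.7 CPM), and among all ntCZC libraries for Tnf (67.8 CPM). Nalcn-het replicate 3, with 25 of these barcodes, was far above for Il10 among all ntCZC libraries (53.0 CPM) and for Acod1 among Nalcn-het libraries (32.5 CPM). The ntCZC wt replicate 1 library, with 103 of the 113 neutrophil-like barcodes, was far above for Il1b (1086 CPM), Il1rn (29.7 CPM) and Ptgs2 (15.4 CPM), and Nalcn-het replicate 4 for Ptgs2 within its genotype (6.92 CPM). The part of these classes in the levels over all barcodes was not tested.

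In tissue, wt replicate 3 was far above for Il1a (68.7 CPM), Acod1 (285 CPM) and Nlrp3 (175 CPM, within wt and over all tissue). In thinned nonclassical monocyte-like barcodes the flags rested on single libraries with any positive barcode: ntCZC Nalcn-het replicate 2 for Il1r2 (4.35%), ntCZC Nalcn-het replicate 4 for Ptgs2 (0.305%), tissue Nalcn-het replicate 1 for Il6 (0.649%) and tissue wt replicate 1 for Il10 (0.625%). The tissue library without a group that is titled replicate 1 exceeded every wt tissue library in Il1r2 (95.8 against at most 83.4 CPM) and Il6 (30.4 against at most 20.9 CPM).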

How the results depend on the processing

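The number of the 10 genes called stayed within 1.5 times the value reported under most alternatives. Without the filter on low counts it became 9 within nonclassical monocyte-like and 6 within B cell-like barcodes, where genes at 0 in most libraries entered the test, and 1 and 4 for Nalcn-null and Nalcn-het against wt in C1q macrophage-like and 1 for Nalcn-null against wt in neutrophil-like barcodes. Asking 4 markers, or using the study's barcode filter, gave 0 for B cell-like barcodes and 0 for mature against type 2 dendritic cell-like barcodes, and 4 markers gave 0 thinned shares (of 3, adjusted over the 10 genes in 1 draw). Averaging over all thinning draws, chosen after seeing the data, gave 6. DESeq2 gave 1 for Nalcn-null against het in ntCZC, and RLE scaling gave 2 for classical against nonclassical monocyte-like barcodes. With 4 markers or the study's barcode filter, Il1b did not pass the filter on low counts within B cell-like barcodes and was not tested. The cause was not tested for the other changes under 4 markers, the study's filter, DESeq2 and RLE scaling.

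Whether same-numbered libraries share a mouse is not in the labels. The ntCZC and tissue libraries of wt replicates 1 and 3, Nalcn-het replicate 2 and Nalcn-null replicate 2 matched in sex and age. Those of Nalcn-het replicate 1 and Nalcn-null replicate 3 differed in age. Deviations of same-numbered libraries correlated between -0.12 and 0.37, and no comparison with at least 3 pairs had every pair over 0.1. Sorted blood and organ pools differ in their cells, so these correlations cannot tell whether a mouse was shared. With the replicate number as a block, 2 genes were called for Nalcn-het against wt in ntCZC, 3 for Nalcn-null against wt in neutrophil-like barcodes and 0 within B cell-like barcodes (Il1b not tested), and Il1b in ntCZC against tissue turned to 0.49.

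With 1 library left out at a time, calls ranged from 5 to 6 for ntCZC against tissue, 0 to 1 for Nalcn-null against het, 0 to 1 within B cell-like barcodes (0 where Il1b did not pass the filter), 0 to 1 for mature against type 2 dendritic cell-like, 1 to 2 for T against B cell-like barcodes and 3 to 5 for thinned shares. The Il1b change in ntCZC against tissue ranged from -0.49 without ntCZC wt replicate 1 to 0.13 without tissue wt replicate 5. The difference in positive share turned to 0.0210 points for Il10 averaged over draws, to 0.152 points for Il10 with thinning to 2000 UMIs and to 0.138 points for Il10 and 3.20 points for Nlrp3 without thinning. Leaving out both libraries that stood apart was also chosen after seeing the data. Depth limits what could be detected in ntCZC, with 50 to 621 barcodes a library, and 7 of the 10 genes did not pass the filter within nonclassical monocyte-like barcodes.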
